A study of Mus musculus with 8 samples.

Results

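The monocarboxylate transporters of the Slc16a family are membrane carriers for small acids and related solutes, and 10 of their genes were followed in mouse liver. The 10 were chosen by gene symbol, in a family that was picked on the difference of Slc16a5 between NS-DADm and WT livers, and all 10 were among the 19935 genes measured. Each was read from the brightest of the probe sets that name that gene alone, by the mean of all arrays. The difference of Slc16a5 is therefore a description, and the values of the same contrast for the other members are given in the same way.

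RNA came from livers of male C57Bl/6 mice aged 10 to 12 weeks on normal chow, collected at zeitgeber time 10, and was read on Affymetrix Mouse Gene 1.0 ST arrays. The 4 NS-DADm samples came from mice whose corepressors NCOR and SMRT both carry a mutated deacetylase-activating domain, the part that binds the histone deacetylase HDAC3 and turns on its activity. In these mice the mutations are in the germline and so in every cell type of the liver. The 4 WT samples came from normal mice with the same strain, tissue and time labels. A mutated domain need not alter the level of its own transcript, so the genotypes rest on the labels. Values are log2 intensities, so a difference of 1 is a doubling of signal, and levels of different genes are not comparable because each probe set binds with its own efficiency.

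The first transporters of the family to be understood move lactate, pyruvate and ketone bodies across the plasma membrane together with a proton, in either direction, and several of them need the partner proteins basigin or embigin to reach the cell surface. The liver takes up lactate for glucose synthesis and releases ketone bodies during fasting, so both directions of transport are in use there. More distant members carry other solutes, such as carnitine, creatine, thyroid hormone or aromatic amino acids, and a few still have no settled substrate.

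Array medians lay between 7.39 and 7.50, and arrays of different groups correlated at r = 0.993 to 0.997 across probe sets. The 5 hepatocyte markers measured, including Alb and Ttr, were at 13.39 or higher on every array, in accord with the tissue label. Since no label ties an array to an animal of its own, the p-values measure the spread between these arrays alone, which may be technical, and with 4 arrays a group the precision is limited.

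Slc16a5 was 2.37-fold higher in NS-DADm livers, Slc16a6 and Slc16a7 had higher values in all NS-DADm arrays without passing the test over all genes, and the other 7 members had log2 fold changes within 0.2 of 0, as did 92.7% of all genes. By limma's moderated test, adjusted by Benjamini-Hochberg over the 19935 genes and read at 0.05, 1 of the 10 members was called, and it was higher. Of all genes 0.271% were called in either direction and 0.161% were called as higher. At an unadjusted p under 0.05 stood 3 of the 10 members, beside 9.33% of all genes. In the same 3 the NS-DADm and WT arrays did not overlap, beside 5.63% of all genes. These counts come from the contrast that led to the family, so nothing is read from them. The median log2 fold change of the 10 members was -0.0029 and that of all genes was -0.01, with 5 members above 0 and 5 below.

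**Figure D1:**
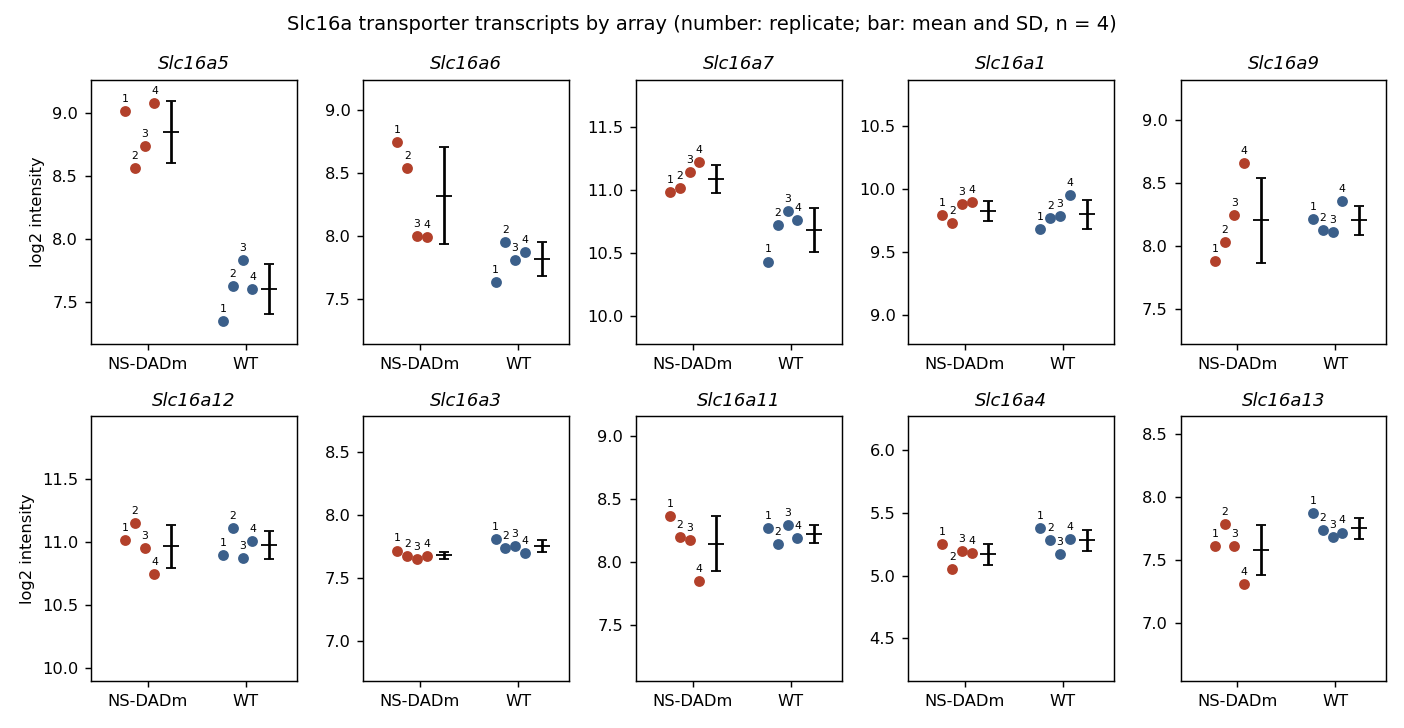
Level of each of the 10 members on each array, with NS-DADm left and WT right in every panel. The y axes show log2 intensity over equal spans, digits are replicate numbers, and black bars are means with SD (n = 4). The groups are separated for Slc16a5, Slc16a7 and Slc16a6, narrowly for Slc16a6, and overlap in the other 7 panels.

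Slc16a5 (Entrez Gene 217316) encodes the transporter usually called MCT6, which in human carries drugs such as the diuretic bumetanide rather than lactate. NS-DADm replicates 1 to 4 had 9.02, 8.57, 8.74 and 9.09, and WT replicates 1 to 4 had 7.35, 7.63, 7.84 and 7.61. The lowest NS-DADm array stood 0.73 above the highest WT array. The means were 8.85 ± 0.24 in NS-DADm and 7.61 ± 0.20 in WT livers (SD, n = 4 each). The log2 fold change was 1.25 (SE 0.13, 95% confidence interval 0.97 to 1.53), which is 2.37-fold with an interval of 1.95 to 2.88. In the limma fit its adjusted p was 0.00364, and it ranked 5 of 19935 genes by p and 19 by absolute log2 fold change. Its WT arrays lay close to the array medians, and its NS-DADm arrays lay above all of them. With each of the 8 arrays left out in turn the log2 fold change ran from 1.16 to 1.34 and the adjusted p from 0.00458 to 0.0263.

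The measured genes on either side of Slc16a5 in the mouse gene table (order from the GRCm38.p6 assembly) gave values near 0. On one side Trim80, Kctd2 and Atp5h had log2 fold changes of 0.11, -0.02 and -0.05, and on the other Armc7, Nt5c and Jpt1 had -0.02, -0.15 and 0.09. None of the 6 passed the test, and their lowest adjusted p was 0.525, for Nt5c. Armc7 is the annotated gene directly next to Slc16a5, with a 95% confidence interval of -0.16 to 0.11. The upper ends of all 6 intervals, at most 0.27 for Jpt1, lay below the lower end of 0.97 for Slc16a5. Slc16a5 was picked on this contrast, and 92.7% of all genes had log2 fold changes within 0.2 of 0. The distance from its 6 neighbours is therefore a description.

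**Figure D2:**
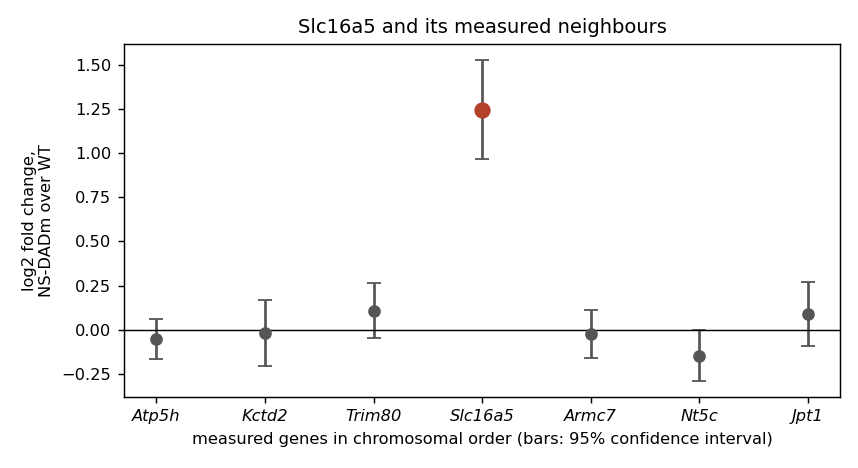
Log2 fold change of Slc16a5 and of the 3 nearest measured genes on each side, in chromosomal order. Points are estimates of NS-DADm over WT, bars are 95% confidence intervals, and the horizontal line marks no difference. Slc16a5 lies at 1.25 and its neighbours between -0.15 and 0.11.

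Likeness to Slc16a5 was measured as the root mean square difference between profiles over the 8 arrays, after each gene was centred on its own mean. The smallest difference, 0.20, was that of Atp6v0d2, which encodes a subunit of the vacuolar proton pump. Atp6v0d2 had 8.49, 8.21, 8.44 and 8.44 in NS-DADm livers, against 6.50, 7.05, 7.33 and 6.69 in WT livers. In both genes WT replicate 1 was the lowest of the 8 arrays, WT replicate 3 the highest WT array, and NS-DADm replicate 2 the lowest NS-DADm array. Atp6v0d2 was picked for its likeness over these same 8 arrays, which favours a shared order. That order is therefore a description. Next came Nipal1 (0.24), Cd36 (0.26), which encodes a fatty acid translocase, and the cytochrome P450 genes Cyp2c38 (0.26) and Cyp2c39 (0.27). A gene can be near Slc16a5 on this scale only if it differs between the groups by a like amount, so the list holds genes with large differences by construction. Their log2 fold changes were 1.5 for Atp6v0d2, 0.91 for Nipal1, 1.28 for Cd36, 1.28 for Cyp2c38 and 0.90 for Cyp2c39. By the limma fit Nipal1 missed the threshold (adjusted p = 0.0514) and the other 4 passed it. Atp6v0d2 did so whichever array was left out. Cd36 missed it without WT replicate 2 or 3 (adjusted p = 0.0539 and 0.0534), and Cyp2c38 and Cyp2c39 missed it without any 1 of 4 and 6 arrays, at up to 0.169 and 0.201. Nipal1 passed it without NS-DADm replicate 1 or 3 (adjusted p = 0.0413 and 0.0353). Probes for Cyp2c38 and Cyp2c39 can take signal from each other's transcripts and those of other Cyp2c genes.

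Of the classical lactate and pyruvate carriers, Slc16a7 stood higher in NS-DADm livers, while Slc16a1 and Slc16a3 had log2 fold changes within 0.1 of 0. Slc16a7 (Entrez Gene 20503) encodes MCT2, which binds pyruvate and lactate tightly and serves uptake. Its NS-DADm arrays read 10.99, 11.02, 11.15 and 11.22, against 10.44, 10.73, 10.83 and 10.76 in WT. All NS-DADm arrays lay above all WT arrays, by at least 0.15. The log2 fold change was 0.40 (SE 0.090, 95% confidence interval 0.20 to 0.60), or 1.32-fold with an interval of 1.15 to 1.52, and did not pass the test over all genes (limma adjusted p = 0.128). WT replicate 1 was the lowest array, and without it the log2 fold change was 0.32 (adjusted p = 0.18).

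Slc16a1 (Entrez Gene 20501) encodes MCT1, the widespread carrier of lactate and ketone bodies. It was at 9.79, 9.73, 9.88 and 9.90 in NS-DADm livers and at 9.68, 9.77, 9.78 and 9.96 in WT livers. The groups overlapped fully, with the highest and the lowest array both WT. The 95% confidence interval of its fold change ran from 0.917 to 1.13, around an estimate of 1.02 (adjusted p = 0.975). Slc16a3 (Entrez Gene 80879) encodes MCT4, the lactate exporter of glycolytic cells. It read 7.72, 7.67, 7.65 and 7.67 in NS-DADm and 7.81, 7.74, 7.76 and 7.70 in WT livers. It had the smallest SDs of the 10 members in both groups, 0.028 and 0.046, and overlapped because NS-DADm replicate 1 lay above WT replicate 4. Its log2 fold change was -0.07 (95% confidence interval -0.18 to 0.04, adjusted p = 0.755).

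**Figure D3:**
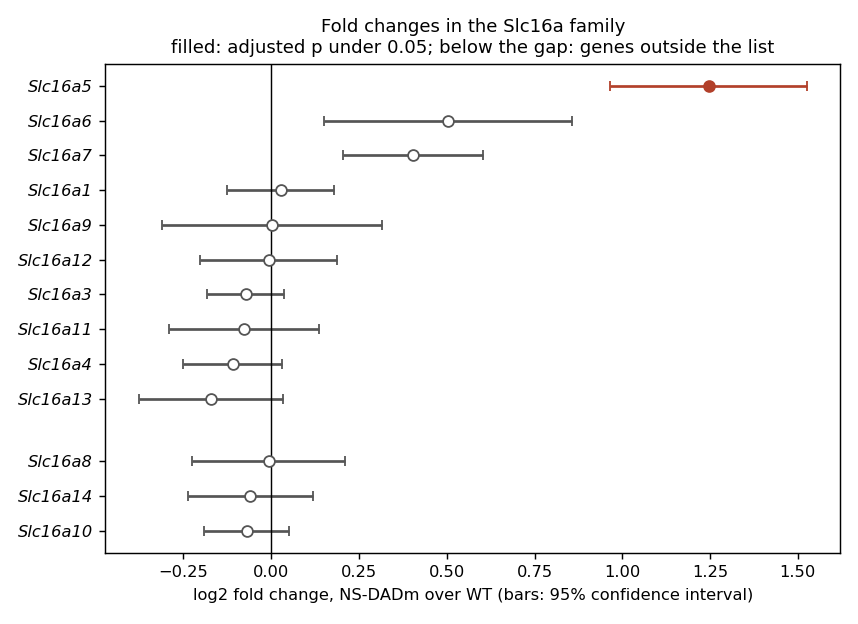
Log2 fold change of NS-DADm over WT for the 10 members, and below the gap for 3 other Slc16a genes. Bars are 95% confidence intervals from the fit over all genes. The interval of Slc16a5 runs from 0.97 to 1.53, those of Slc16a6 and Slc16a7 lie above 0 at 0.15 to 0.86 and 0.20 to 0.60, and the other 10 include 0.

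Slc16a6 (Entrez Gene 104681) encodes MCT7, which in zebrafish exports ketone bodies from the liver. It had 8.75, 8.54, 8.0 and 7.99 in NS-DADm livers, against 7.63, 7.96, 7.81 and 7.88 in WT livers. NS-DADm replicates 1 and 2 stood well above the WT arrays, whereas replicates 3 and 4 exceeded the highest WT array by under 0.1 each. The smallest gap between the groups was 0.036. The SD was 0.38 in NS-DADm and 0.14 in WT livers. The log2 fold change was 0.50 (SE 0.16, 95% confidence interval 0.15 to 0.86, limma adjusted p = 0.329), and it was 0.36 without NS-DADm replicate 1. Of the ketone body genes, Aacs, which activates acetoacetate for lipid synthesis, was also highest in NS-DADm replicates 1 and 2. Aacs had 10.87, 10.74, 10.23 and 9.91 in NS-DADm livers and 10.02, 9.74, 9.97 and 9.67 in WT livers. The likeness did not extend to WT livers, where replicate 1 was the lowest for Slc16a6 and the highest for Aacs.

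Slc16a9 and Slc16a12 belong to the members with other substrates, and their log2 fold changes were within 0.01 of 0. Slc16a9 (Entrez Gene 66859) encodes MCT9, linked to carnitine transport in human. It had the widest NS-DADm spread of the 7 members nearest to 0, with 7.88, 8.04, 8.25 and 8.66 in NS-DADm livers and 8.21, 8.13, 8.11 and 8.36 in WT livers. NS-DADm replicate 1 was the lowest array of all and NS-DADm replicate 4 the highest. The means were 8.21 ± 0.34 in NS-DADm and 8.20 ± 0.11 in WT livers (SD, n = 4 each), and the 95% confidence interval of the log2 fold change ran from -0.31 to 0.31 (adjusted p = 0.999). A second probe set of Slc16a9 was near the low end of the intensities on every array, at 4.36 ± 0.075 in NS-DADm and 4.35 ± 0.055 in WT livers (SD, n = 4 each), and did not show this spread.

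The summed intensity of 6 markers of Kupffer cells, the resident macrophages of the liver, ranked the arrays of each group as Slc16a9 did. Taken singly, Adgre1, Cd5l and Vsig4 did so in both groups. Clec4f and Timd4 did so in NS-DADm livers only, and Marco in neither group. The 6 markers, all measured, summed to 11.33, 11.62, 12.11 and 12.46 (log2 of the summed intensity) in NS-DADm livers and to 11.98, 11.61, 11.42 and 12.16 in WT livers. The array with the highest sum in each group was also that with the highest Slc16a9, namely NS-DADm replicate 4 and WT replicate 4. None of the 6 Kupffer markers passed the test between groups, their median log2 fold change was 0.08, and the lowest value of any of them was 6.92. In NS-DADm livers the order was not particular to Kupffer markers. Stellate cell markers summed to 10.90, 11.11, 11.16 and 11.52 in NS-DADm replicates 1 to 4. The sinusoidal endothelial sum was also lowest in NS-DADm replicate 1 (11.88) and highest in NS-DADm replicate 4 (12.49). Neither of these lists had the order of Slc16a9 in WT livers. The part of any of these cell types in the Slc16a9 signal was not tested. In whole liver, fewer cells of a type and less RNA per cell cannot be told apart.

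**Figure D4:**
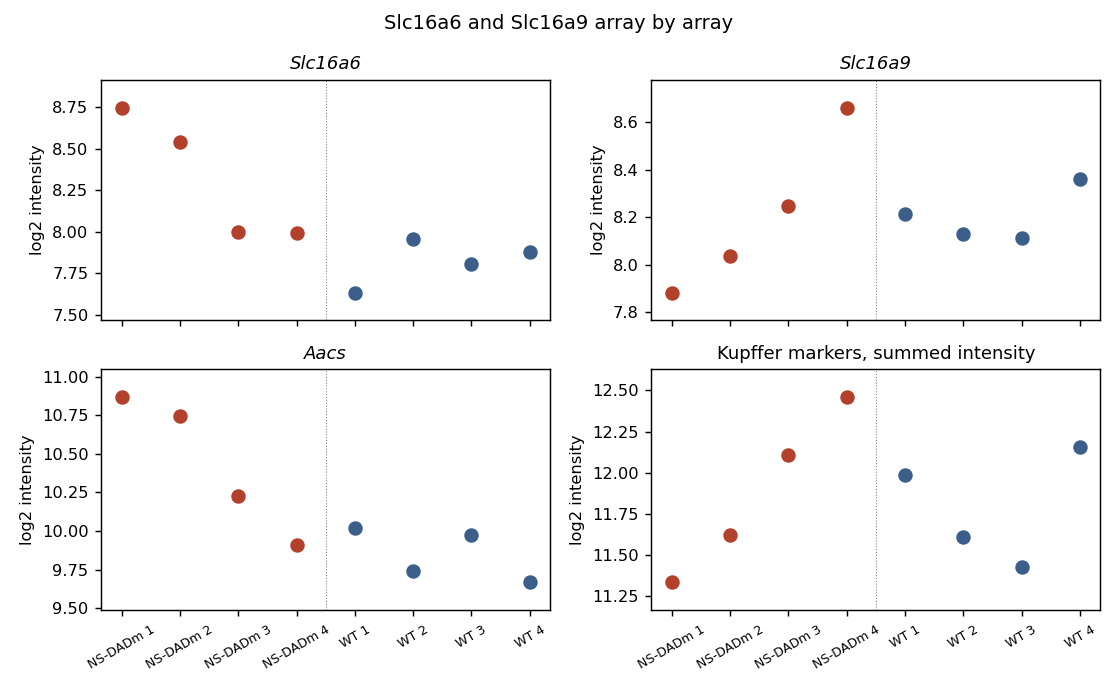
Slc16a6 and Slc16a9 on each array, with Aacs below the first and the summed intensity of 6 Kupffer cell markers below the second. All y axes are log2 intensity, NS-DADm arrays are on the left of the dotted line and WT arrays on the right. Slc16a6 and Aacs are highest in NS-DADm replicates 1 and 2. Among WT arrays, replicate 1 is the lowest for Slc16a6 and the highest for Aacs. Slc16a9 and the Kupffer sum are lowest in NS-DADm replicate 1 and highest in NS-DADm replicate 4.

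Slc16a12 (Entrez Gene 240638) encodes MCT12, a creatine transporter. It had 11.01, 11.15, 10.95 and 10.74 in NS-DADm livers and 10.89, 11.11, 10.87 and 11.00 in WT livers, so the groups overlapped, with the highest and the lowest array both NS-DADm. Its fold change of 0.995 had a 95% confidence interval of 0.869 to 1.14 (adjusted p = 0.995).

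Slc16a11 and Slc16a13 are directly adjacent in the mouse gene table, on the same chromosome as Slc16a3, Slc16a5 and Slc16a6. The human region that holds both genes is linked to the risk of type 2 diabetes, and Slc16a13 acts as a lactate transporter in mouse liver. Slc16a13 (Entrez Gene 69309) had 7.61, 7.79, 7.61 and 7.31 in NS-DADm livers and 7.87, 7.74, 7.68 and 7.72 in WT livers. The groups overlapped through NS-DADm replicate 2, which lay above 3 of the WT arrays. At -0.17 its log2 fold change was the lowest of the 10 members (95% confidence interval -0.38 to 0.03, adjusted p = 0.627), and it was -0.08 without NS-DADm replicate 4. Slc16a11 (Entrez Gene 216867) had 8.36, 8.20, 8.17 and 7.85 in NS-DADm livers and 8.28, 8.14, 8.30 and 8.19 in WT livers. Its log2 fold change was -0.08 (95% confidence interval -0.29 to 0.14, adjusted p = 0.922), and 0.02 without NS-DADm replicate 4. That array had the lowest value of both genes.

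Slc16a4 (Entrez Gene 229699), whose product MCT5 has no settled substrate, gave a dim signal. It had 5.25, 5.05, 5.20 and 5.18 in NS-DADm livers and 5.37, 5.28, 5.17 and 5.29 in WT livers, all below the array medians. The groups overlapped, and the log2 fold change was -0.11 (95% confidence interval -0.25 to 0.03, adjusted p = 0.667). No detection call was used here, so whether these values stand above background was not judged.

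Over the 7 members whose confidence intervals include no difference, the intervals of the fold changes reached from 0.77 at the lowest, for Slc16a13, to 1.24 at the highest, for Slc16a9. NS-DADm replicate 4 was the highest NS-DADm array for 4 of the 10 members, namely Slc16a1, Slc16a5, Slc16a7 and Slc16a9, and the lowest for 4, namely Slc16a6, Slc16a11, Slc16a12 and Slc16a13. NS-DADm replicate 3 was the lowest for 1 member and the highest for 0. The SD in NS-DADm livers was 3.0 times that in WT livers for Slc16a9 and for Slc16a11, 2.81 times for Slc16a6 and 2.40 times for Slc16a13. It was 0.595 times for Slc16a3, 0.633 times for Slc16a7, 0.66 times for Slc16a1 and 0.998 times for Slc16a4. For Slc16a5 it was 1.21 times and for Slc16a12 1.51 times. These ratios rest on 4 arrays a group and were not tested.

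Of the Slc16a genes outside the 10, 3 were analysed here. Slc16a10, which encodes a carrier of aromatic amino acids, had 10.43 ± 0.079 in NS-DADm and 10.50 ± 0.019 in WT livers (SD, n = 4 each). Its log2 fold change was -0.07. Slc16a8, the lactate carrier of the retinal pigment epithelium, was at -0.01 and Slc16a14 at -0.06. None of the 3 passed the test, with a lowest adjusted p of 0.812.

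Genes that work with these transporters showed no member past the test over all genes in any of the lists examined. The 3 accessory proteins had log2 fold changes of 0.07 for Bsg, which encodes basigin, -0.09 for Nptn, which encodes its relative neuroplastin, and 0.01 for Emb, which encodes embigin. The sodium-coupled monocarboxylate transporters Slc5a8 and Slc5a12 were at -0.05 and -0.04. Among 15 measured genes of lactate and pyruvate metabolism 0 rose and 0 fell, 9 had values above 0, 5 had an unadjusted p under 0.05 beside 9.33% of all genes, and the median was 0.07. The largest values there were -0.26 for Pdk4, a kinase that shuts pyruvate dehydrogenase off (adjusted p = 0.53), and 0.21 for Pdha1, a subunit of that enzyme (adjusted p = 0.429).

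In the 5 measured genes of ketone body synthesis and use the median was -0.01, with 0 past the test in either direction and 2 of the 5 at an unadjusted p under 0.05, beside 9.33% of all genes. The largest values were -0.66 for Bdh2, a short-chain dehydrogenase (adjusted p = 0.11), and 0.59 for Aacs (adjusted p = 0.323). Bdh2 had 8.50, 8.59, 8.59 and 8.84 in NS-DADm livers, against 9.0, 9.12, 9.33 and 9.72 in WT livers. The groups did not overlap, as in 5.63% of all genes. They also did not overlap for 3 of the 15 lactate and pyruvate genes and 1 of the 9 creatine and carnitine genes. In the 9 genes of creatine and carnitine synthesis and transport 0 passed, 1 of the 9 had an unadjusted p under 0.05 beside 9.33% of all genes, and the median was -0.04. The creatine transporter Slc6a8 was at -0.24 (adjusted p = 0.296) and the carnitine acetyltransferase Crat at 0.20 (adjusted p = 0.601). Leaving out NS-DADm replicate 4 put Crat at 0.11.

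**Figure D5:**
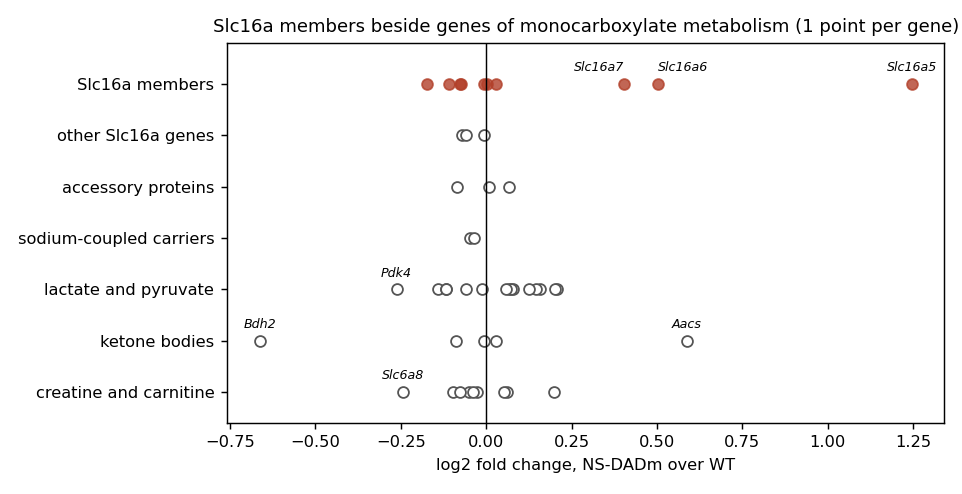
Log2 fold change of NS-DADm over WT for each of the 10 members in the top line and for each measured gene of 6 related lists below it. Each point is 1 gene, and the vertical line marks no difference. Slc16a5, on which the family was picked, lies at 1.25, and the genes of the related lists run from -0.66 for Bdh2 to 0.59 for Aacs.

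Markers of other liver cells were set beside the change of Slc16a5. The 6 sinusoidal endothelial markers, all measured, had log2 fold changes below 0 with a median of -0.29, and their summed log2 intensity ran from 11.88 to 12.49 in NS-DADm and from 12.33 to 12.58 in WT livers. The 5 neutrophil markers, all measured, lay above 0 with a median of 0.18, and summed to 8.38 to 8.61 in NS-DADm and 8.21 to 8.40 in WT livers. Each of these 5 taken singly was below the array medians on every array. The 1 measured erythroid marker, Alas2, was at -0.51 (adjusted p = 0.0707). No member of these lists or of the hepatocyte, cholangiocyte, Kupffer, stellate, lymphocyte, adipocyte and muscle lists passed the test. The lowest values were 4.89 among the muscle, 5.05 among the lymphocyte, 5.15 among the neutrophil and 5.32 among the adipocyte markers. Whether such values stand above background was not judged. An unadjusted p under 0.05 was reached by 4 of the 6 sinusoidal endothelial markers, 2 of the 5 neutrophil markers, Alas2, 1 of 5 hepatocyte and 1 of 5 stellate cell markers and 0 in the other lists, beside 9.33% of all genes. The part of these cells in the difference of Slc16a5 was not tested.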

How the data were processed

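The deposited table holds log2 intensities of 28270 probe sets on 8 arrays. Per the submitters' processing notes the authors used RMA and Partek, with no order, version or setting stated in the labels. The log2 scale was read from the values, which run from 3.43 to 14.37, and RMA compresses small differences at low intensity. Gene names came from a platform annotation of the probe sets, with symbols updated by Entrez identifier through a GRCm38.p6 gene table (19849 of 19935 genes matched). Probe sets with several genes (1617) or no gene (4873) were left out. No filter on low values was applied. NS-DADm and WT were compared in R 4.3.3 with limma 3.58.1 (lmFit, eBayes, two-sided, Benjamini-Hochberg over all genes), and members were read from that fit. The step was tested on simulated data with independent normal noise and the same spread in both groups. Unequal spreads, such as those of Slc16a9, were thus not covered. Batches, scan dates and detection calls were not used. The named genes are the 10 members, the other Slc16a genes, the 5 profiles nearest to that of the member with the largest difference (predicted and clone names left out), its 3 neighbours per side, and of each related list the genes past the test or else the 2 with the largest absolute values. Bdh2 and Aacs are shown by array after their values were seen. Members and lists were chosen with earlier results of these data known. The alternatives are those of the closing section. Replicate numbers were not used to pair the arrays in the main fit, and whether they mark pairs was not settled. Deviations from the group means of same-numbered arrays correlated at -0.10 to 0.25, over 0.1 in 2 of 4 pairs. Python 3.11.15 with pandas 2.3.3 and matplotlib 3.10.9 served for tables and plots.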

Additional observations from a re-analysis of the deposited data

Results flagged for a closer look

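Of 68 groups of 4 arrays examined for the named genes, 1 held an array far from the other 3, where chance alone gives about 5% of groups. It was the creatine transporter gene Slc6a8 in NS-DADm livers, where replicate 3, at 7.71, was set apart from the others by 0.837 of the group's range. None of the 20 groups of the 10 members held such an array.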

How the results depend on the processing

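Slc16a5 was called under every processing alternative and every array left out except the ordinary linear model without shared variances (adjusted p = 0.222), with a log2 fold change of 1.14 to 1.34. That model called 0 genes and 0 members, with 1709 genes at an unadjusted p under 0.05. With the replicate number as a block, 105 genes and 2 members were called, the second being Slc16a7 (adjusted p = 0.0421), and 2 of 4 NS-DADm arrays correlated best with the WT array of their own number. Against 54 changed genes, array weights gave 109, a threshold of 0.01 gave 13, a threshold of 0.1 gave 109, and leaving out 1 array gave 13 (without WT replicate 2) to 126 (without NS-DADm replicate 4). Arrays whose removal moved that count by over 1.5 times were also WT replicate 3 (22) and NS-DADm replicates 2 (31) and 3 (35). The member count was 1 whichever array was left out, and the members' median ran from -0.04 to 0.03. The signs of Slc16a1, Slc16a9, Slc16a11 and Slc16a12, none of them called, turned under at least 1 alternative, with values from -0.15 to 0.11. Bdh2 was called with array weights (adjusted p = 0.0301) and with the block (0.0111). Of the profiles nearest to Slc16a5, Nipal1 passed the test with both filters on low values (adjusted p = 0.0462 and 0.0428). Apart from the ordinary linear model, Cyp2c38 missed it with all probe sets tested (0.0548), array medians subtracted (0.0552) and trended and robust variances (0.105), and Cyp2c39 with all probe sets tested (0.0718), quantile normalization (0.0619), array medians subtracted (0.0646) and array weights (0.0574). Slc16a4 fell below both filters on low values.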
